A study of Mus musculus with 2 samples.

Results

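Arginine metabolism was followed through 8 genes (*Arg1*, *Arg2*, *Nos2*, *Slc7a2*, *Ass1*, *Asl*, *Odc1* and *Gatm*), chosen by name for their place in the pathway and found by symbol among the 33696 genes listed in the count tables. All 8 were found. They were read in the macrophage, monocyte, neutrophil, T and tumor cells of 2 single-cell RNA libraries of CT26 tumors. CT26 is a murine colon cancer line, grown here under the skin of male BALB/c mice of 6 to 8 weeks. In the BUP library the tumors had been treated with BUP-Gel, a hydrogel loaded with the local anesthetic bupivacaine (BUP), and in the UT library they were left untreated, without an empty gel, so that effects of the gel and of the drug cannot be told apart. Live CD45+ and CD45- cells were sorted and mixed before loading, and each library pooled 3 tumors. Each condition is thus 1 library without replicates, which allows no test of BUP against UT, and all intervals below are 95% intervals of counting error only.

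Arginine is a substrate shared by several enzymes. Arginases (*Arg1* in the cytosol, *Arg2* in mitochondria) split it into urea and ornithine, and ornithine decarboxylase (*Odc1*) turns ornithine into putrescine, the first polyamine. Inducible nitric oxide synthase (*Nos2*) makes nitric oxide and citrulline from it, and argininosuccinate synthase (*Ass1*) and lyase (*Asl*) rebuild arginine from citrulline. *Slc7a2* encodes a carrier that brings cationic amino acids such as arginine into the cell, and *Gatm* uses arginine and glycine in the first step of creatine synthesis. In tumors, arginase-expressing myeloid cells are known for removing arginine that T cells need, and *Arg1* and *Nos2* are the usual markers of M2-like and M1-like macrophages.

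The genes lie, on GRCm39, on chromosome 10 (*Arg1*, 24791118 to 24803817), chromosome 12 (*Arg2*, 79177524 to 79203075, and *Odc1*, 17594383 to 17601507), chromosome 11 (*Nos2*, 78811613 to 78851080), chromosome 8 (*Slc7a2*, 41315431 to 41375345), chromosome 2 (*Ass1*, 31352181 to 31410862, and *Gatm*, 122424948 to 122441799) and chromosome 5 (*Asl*, 130040099 to 130058088). Upstream sequence was at hand for 3 of the 8, *Ass1*, *Odc1* and *Gatm*, from RefSeq on GRCm38.p6. The 250 bases before each gene's start are shown because these genes had their highest levels in different cells (dendritic, tumor and C1q macrophage-like cells, respectively), with matches on either strand to the E-box CACGTG, the GC box GGGCGG and the TATA box TATAAA in capitals.
Ass1 chr2:31470020-31470269 (plus strand): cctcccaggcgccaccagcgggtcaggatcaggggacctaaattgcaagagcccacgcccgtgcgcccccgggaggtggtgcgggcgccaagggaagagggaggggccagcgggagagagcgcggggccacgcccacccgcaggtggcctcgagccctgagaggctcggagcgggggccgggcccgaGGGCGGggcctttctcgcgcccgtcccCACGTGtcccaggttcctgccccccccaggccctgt
Odc1 chr12:17544623-17544872 (plus strand): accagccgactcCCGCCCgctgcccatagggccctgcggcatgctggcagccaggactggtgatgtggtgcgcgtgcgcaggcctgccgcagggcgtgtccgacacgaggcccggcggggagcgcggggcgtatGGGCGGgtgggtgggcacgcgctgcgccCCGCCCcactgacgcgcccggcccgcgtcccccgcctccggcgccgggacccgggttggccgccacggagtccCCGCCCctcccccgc
Gatm chr2:122611278-122611527 (minus strand): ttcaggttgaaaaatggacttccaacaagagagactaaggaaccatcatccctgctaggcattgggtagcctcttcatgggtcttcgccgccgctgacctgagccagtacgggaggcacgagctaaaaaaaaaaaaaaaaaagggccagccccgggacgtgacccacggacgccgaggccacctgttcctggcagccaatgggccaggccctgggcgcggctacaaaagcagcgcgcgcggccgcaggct
The *Ass1* window held 1 CACGTG and 1 GGGCGG, the *Odc1* window held 4 GGGCGG, and the *Gatm* window held no match. The matches do not overlap each other. CACGTG was found in 6.02% and GGGCGG in 32.7% of 32851 windows of this length before RefSeq gene starts, and TATAAA in 12.4%. The STAT-type motif TTCNNNGAA and the cyclic AMP-type motif TGACGTCA were also searched on both strands and are not in these 3 windows, against 7.02% and 1.55% of all windows. A match is a string of letters here and not a binding site.

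The depth was 83228442 unique molecular identifiers (UMIs, counted RNA molecules) over 7556 barcodes in UT and 89918925 over 7221 in BUP. Of these, 7163 and 6776 cells were kept, with medians of 8430 and 10420 UMIs. Clusters of *Ptprc*-expressing (immune) cells made up 81.0% of UT and 59.7% of BUP cells, a share that the mixing of sorted cells also sets. Of the barcode sequences, 68 were in both libraries among the kept cells. Clustering, without the 8 genes, gave 25 classes, of which 11 belong to the cell types of interest. These were macrophage-like cells led by *Cxcl3* and *Thbs1* (1312 UT and 818 BUP cells), by complement C1q genes (1056 and 451), by C1q and cell-cycle genes (243 and 60) and by interferon-response genes such as *Rsad2* (193 and 75), monocyte-like cells (219 and 99), neutrophil-like cells (622 and 428), CD8 T-like cells (315 and 483), cycling CD8 T-like cells (181 and 283), T-like cells led by *Il17a* and *Foxp3* (109 and 87), and tumor-like cells led by *Ogn* and *Aspn* (614 and 1736) or by *Esm1* and *Nppb* (514 and 698). All markers listed for each class were detected, 12 of 12 in each macrophage-like class, although none of the 12 was among the 10 leading genes of the *Cxcl3* and the interferon-led macrophage-like classes. As a mark of the male host, 4 genes of the Y chromosome (*Ddx3y*, *Eif2s3y*, *Kdm5d* and *Uty*) summed to 4.40 and 6.28 CPM in the tumor-like classes and to 105 to 256 CPM in all others except the erythroid-like cells (17.2 CPM) and 1 unnamed non-immune cluster (18.7 CPM). CPM are UMIs of a gene per 1000000 UMIs of all cells of a class, and a class is read as a whole, since its cells are not replicates.

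The genes differed in the class of highest level, as the plot of levels by class shows. Of the 11 classes, *Arg1* was highest in the *Cxcl3* and *Thbs1* macrophage-like cells, *Arg2* in the neutrophil-like cells, *Nos2* in the interferon-led macrophage-like cells, *Gatm* in the cycling C1q macrophage-like cells and *Odc1* in the *Esm1* and *Nppb* tumor-like cells, in both libraries. *Asl* lay between 15.1 and 35.7 CPM in the 6 classes compared, lower in the tumor-like than in the macrophage-like and CD8 T-like cells. Of the differences between the libraries past 1.5-fold, the one resting on the most UMIs (27756) was *Arg1* in the C1q macrophage-like cells, with a UT level of 1597 CPM and a BUP level of 861 CPM.

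**Figure D1:**
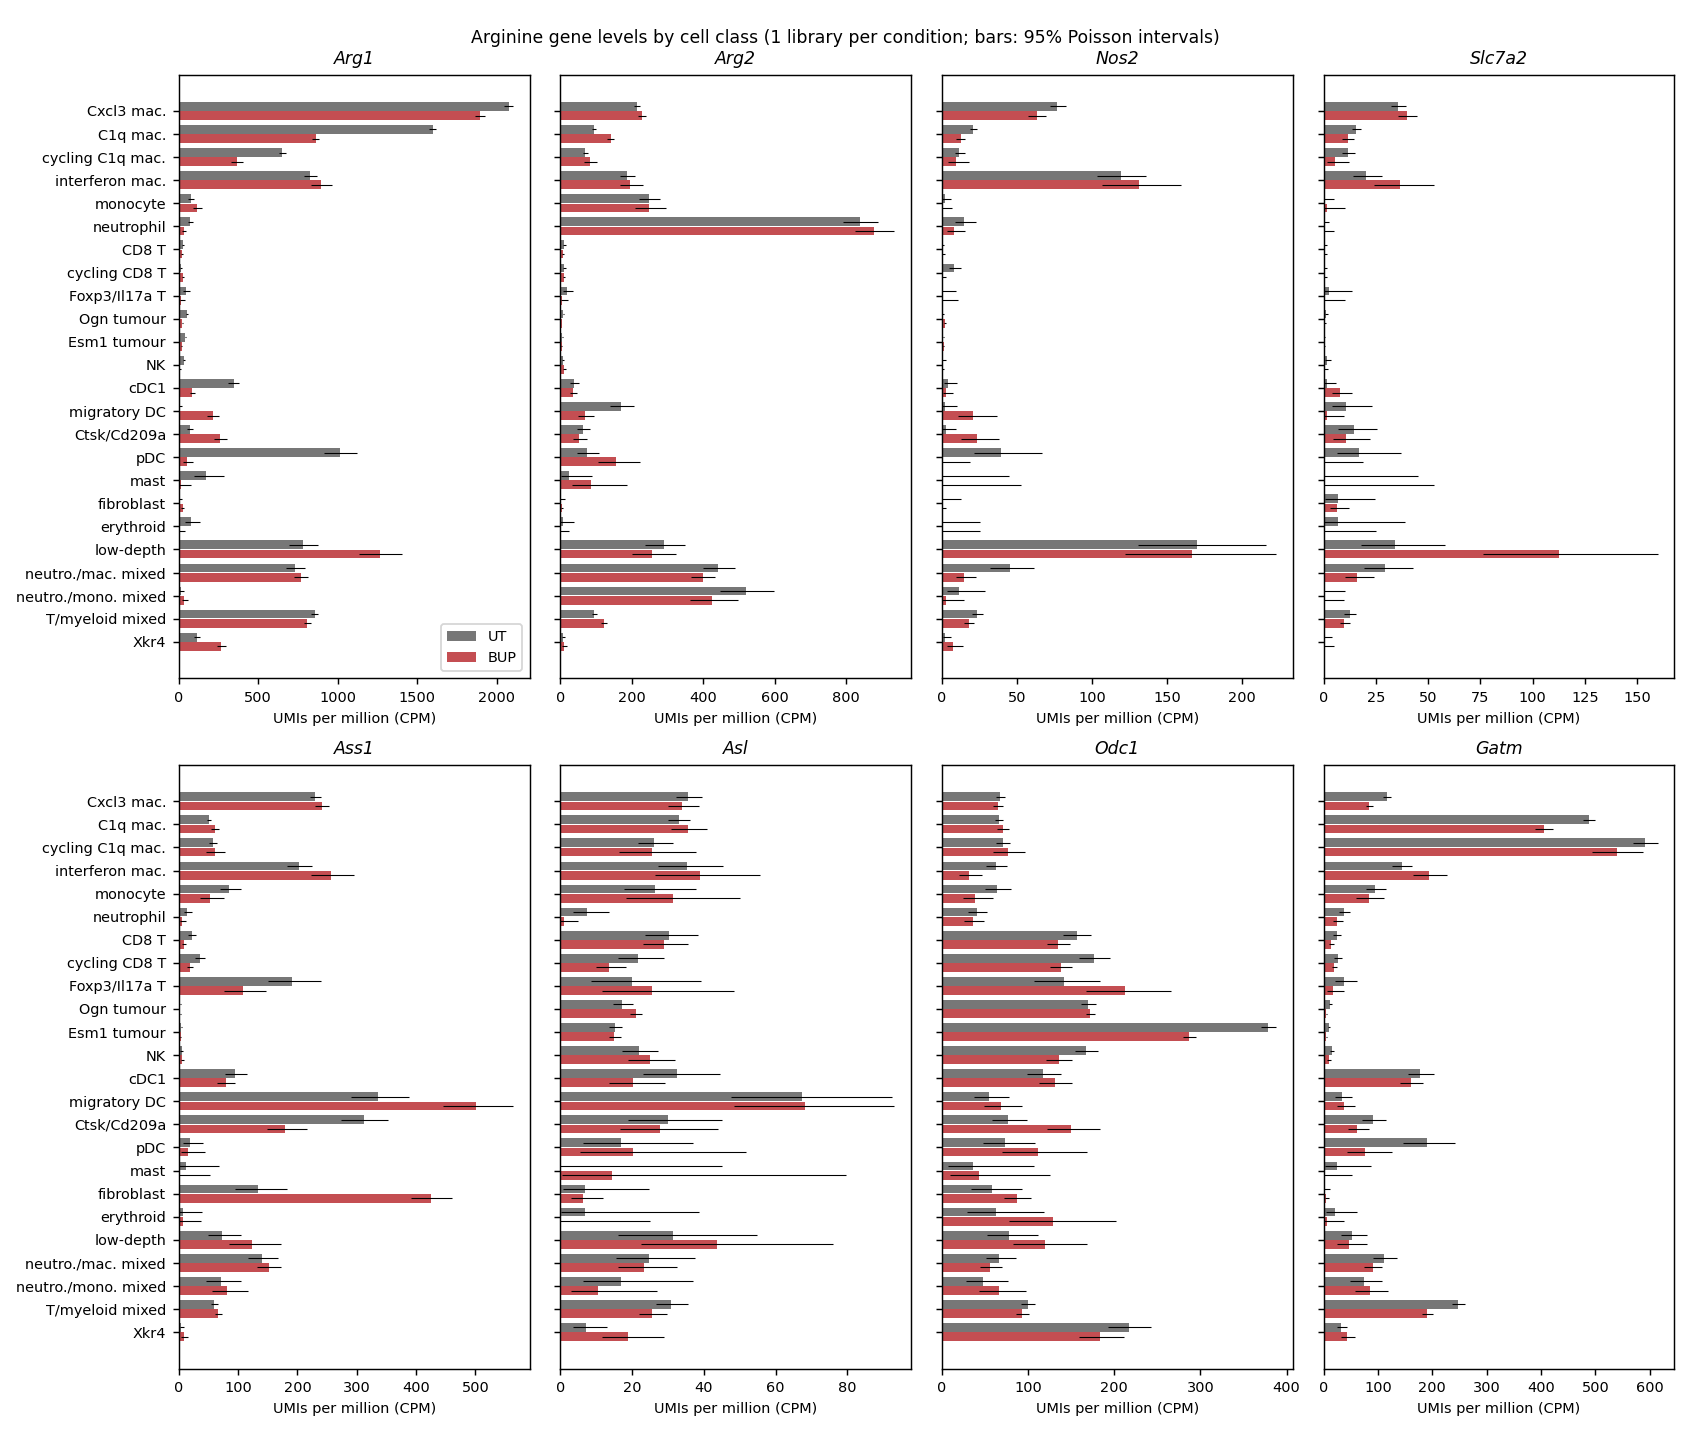
Level of each of the 8 genes (CPM, linear axes that differ between genes) in the 24 classes of at least 50 cells, with UT in grey and BUP in red and with 95% Poisson intervals. *Arg1* lay at 2075 and 1897 CPM in the *Cxcl3* and *Thbs1* macrophage-like cells and *Arg2* at 838 and 879 CPM in the neutrophil-like cells, each the highest of its gene in both libraries.

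Of the 88 values (8 genes in 11 classes), 55 rested on at least 100 UMIs over both libraries and were compared. *Arg1* could be compared in 10 classes, *Ass1* and *Odc1* in 9, *Arg2* and *Gatm* in 8, *Asl* in 6, *Nos2* in 3 and *Slc7a2* in 2. At least 1.5-fold lower levels in BUP were seen in 14 of the 55, against 3.32% of all 70471 gene-by-class values of the same minimum. At least 1.5-fold higher levels were seen in 3 of the 55, against 1.65% of all values. The 14 comprised 7 in tumor-like or neutrophil-like cells, where a sum of 5 macrophage genes was also lower (below). The minimum of 100 UMIs leaves many of the 17 with few counts. Of the 35 member values with at least 300 UMIs, 5 were lower and 0 higher, against 1.42% and 0.963% of all 44435 values. The 5 were *Arg1* in both C1q macrophage-like classes and both tumor-like classes, and *Nos2* in the C1q macrophage-like cells. The median log2 ratio of all genes was between -0.08 and -0.02 in the 11 classes. Of the 17 differences, 8 stayed past 1.5-fold in every alternative way of processing that gave a log2 ratio.

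By class, the members were read against all genes of the same class. No member passed 1.5-fold in the *Cxcl3* and *Thbs1* macrophage-like cells (0 of 8, against 1.19% of genes higher and 2.21% lower) or the CD8 T-like cells (0 of 3, against 1.19% higher and 4.51% lower). In the C1q macrophage-like cells 2 of 8 were lower (2.94% of genes higher, 1.97% lower), and in the cycling C1q macrophage-like cells 1 of 6 (2.32% higher, 5.61% lower). The interferon-led macrophage-like cells had 1 of 6 lower (1.87% higher, 2.96% lower) and the neutrophil-like cells 1 of 2 (1.55% higher, 9.67% lower). Of 4 members each, 1 was higher and 1 lower in the monocyte-like cells (2.95% higher, 2.67% lower) and the cycling CD8 T-like cells (2.01% higher, 3.24% lower), and of 2 members in the T-like cells led by *Il17a* and *Foxp3*, 1 was higher and 1 lower (3.15% higher, 7.03% lower). In each tumor-like class 3 of 6 were lower, against 0.396% of genes higher and 2.82% lower in the *Ogn* and *Aspn* class and 1.2% higher and 2.15% lower in the *Esm1* and *Nppb* class.

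**Figure D2:**
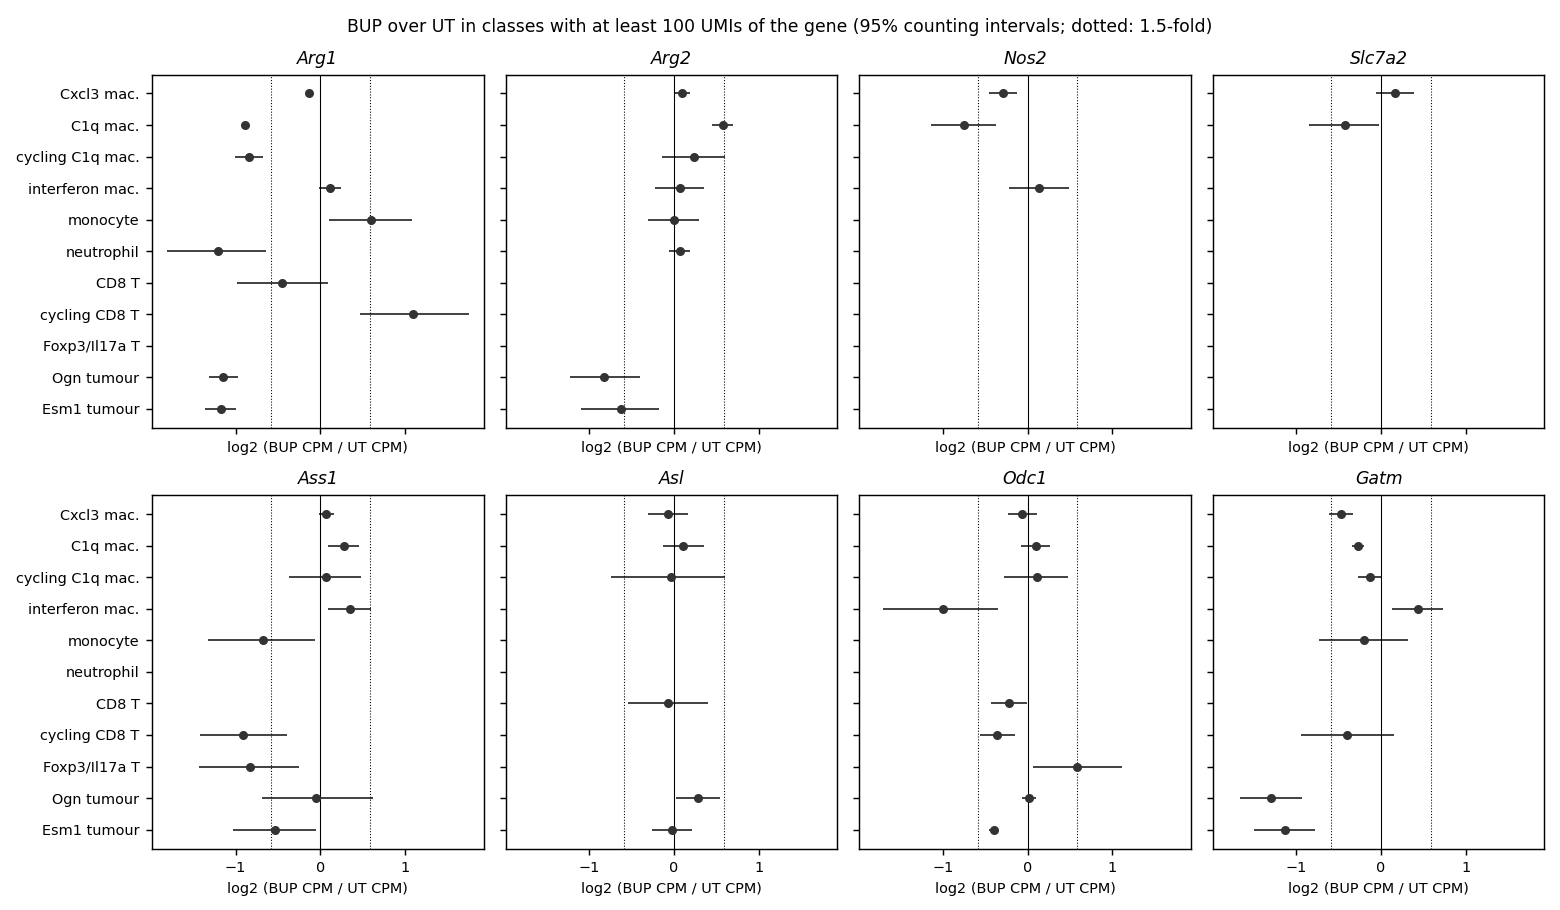
Log2 ratio of the BUP level over the UT level of each gene in the classes where it had at least 100 UMIs, with 95% counting intervals (bars) and 1.5-fold in either direction (dotted lines). *Arg1* in the C1q macrophage-like cells lies at -0.89 with an interval of -0.94 to -0.85, while *Arg1* in the *Cxcl3* and *Thbs1* macrophage-like cells lies at -0.13.

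*Arg1*, the cytosolic arginase, was highest in the *Cxcl3* and *Thbs1* macrophage-like cells, at 2075 CPM (22421 UMIs) in UT and 1897 CPM (13981 UMIs) in BUP, a log2 ratio of -0.13 (-0.16 to -0.10). In the C1q macrophage-like cells it stood at 1597 CPM (22750 UMIs) in UT and 861 CPM (5006 UMIs) in BUP, a log2 ratio of -0.89 (-0.94 to -0.85). The cycling C1q macrophage-like cells had 652 and 365 CPM, a log2 ratio of -0.84 (-1.0 to -0.67), but the 5 cells with most *Arg1* held 52.6% of the BUP UMIs, and at a finer clustering resolution the ratio was -0.37. The interferon-led macrophage-like cells had 828 and 896 CPM, with a log2 ratio of 0.11 (-0.02 to 0.25). The lower *Arg1* thus lay in both C1q classes, and the other 2 macrophage-like classes stayed within 1.5-fold. The difference between the classes has no test with 1 library each.

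The order of the 11 classes differed between the libraries. In UT the C1q macrophage-like cells were second to the *Cxcl3* and *Thbs1* macrophage-like cells, with no overlap of intervals. In BUP they stood at 861 CPM (838 to 886), overlapping the interferon-led macrophage-like cells (830 to 965). Of all *Arg1* UMIs, the C1q macrophage-like cells held 38.8% in UT and 17.3% in BUP, and the *Cxcl3* and *Thbs1* macrophage-like cells held 38.2% and 48.4%, shares that also move with the number of cells in each class. A sum of 5 genes of macrophages, *Apoe*, *Ms4a7* and those of C1q (*C1qa*, *C1qb*, *C1qc*), came to 17354 CPM in UT and 17628 CPM in BUP in the C1q macrophage-like cells. There *Arg1* made 9.20 UMIs per 100 UMIs of these genes in UT and 4.89 in BUP. In an unnamed cluster of T and myeloid markers the 5 genes came to 7818 and 7397 CPM. *Arg1* made 10.9 UMIs per 100 of theirs there in each library, and 47.1% of that cluster's cells had a doublet score in the top 6%.

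The difference was seen along the whole distribution of cells. To make depth equal, 2000 UMIs were drawn at random from every cell (thinning), and shallower cells were left out. Of 997 UT C1q macrophage-like cells, 47.5% had no *Arg1* UMI and 24.7% had 5 or more, and of 433 BUP cells 61.0% had none and 13.9% had 5 or more. In the *Cxcl3* and *Thbs1* macrophage-like cells, 53.1% of 1293 UT and 50.8% of 813 BUP cells had none, and 30.2% and 28.7% had 5 or more. Both classes thus held many cells without an *Arg1* UMI at this depth, which does not show that the transcript was absent. Before thinning, 66.4% of UT and 55.4% of BUP C1q macrophage-like cells had an *Arg1* UMI. In the *Cxcl3* and *Thbs1* class the shares were 57.4% and 57.8%. As background, an *Arg1* UMI was found in 3.33% of 300 thinned UT and 3.97% of 453 thinned BUP CD8 T-like cells (medians of 6254 and 5751 UMIs before thinning, against 12438 and 11192 in the C1q macrophage-like cells).

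**Figure D3:**
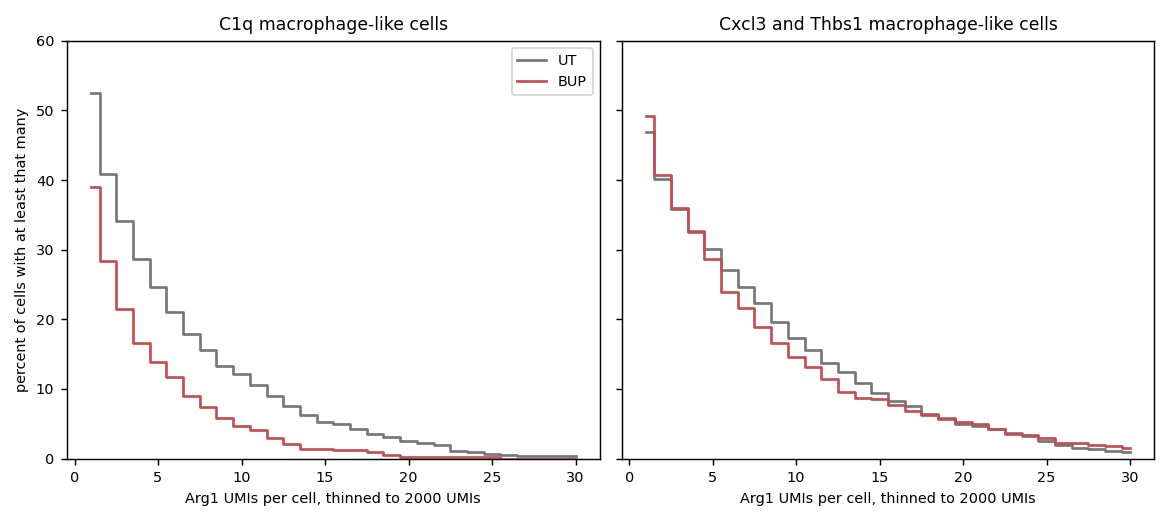
Percent of cells (vertical axis) with at least a given number of *Arg1* UMIs (horizontal axis) after each cell was thinned to 2000 UMIs, in C1q (left) and *Cxcl3* and *Thbs1* (right) macrophage-like cells, UT in grey and BUP in red. The BUP curve runs below the UT curve in the C1q class, with 13.9% against 24.7% of cells at 5 UMIs or more, and the curves lie close together in the other class, with 28.7% against 30.2%.

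Of the 11 classes, those other than the macrophage-like cells had at most 114 CPM of *Arg1*. Clusters that could not be named had more, with 854 and 809 CPM in the cluster of T and myeloid markers, 733 and 769 CPM in the cluster of neutrophil and macrophage markers, and 781 and 1264 CPM in the immune cluster of low depth. The neutrophil-like cells had 72.6 CPM in UT and 31.5 CPM in BUP (log2 ratio -1.21, -1.81 to -0.64, from 99 and 35 UMIs). The tumor-like cells led by *Ogn* and *Aspn* had 52.3 and 23.6 CPM (-1.15, -1.32 to -0.98), and those led by *Esm1* and *Nppb* had 40.7 and 18.0 CPM (-1.18, -1.36 to -1.0). In these 3 classes the 5 macrophage genes were lower in BUP as well, at 791 and 428 CPM in the neutrophil-like cells, 331 and 175 CPM in the first and 315 and 168 CPM in the second tumor-like class, none of the 5 being at 0. The full list of 12 macrophage markers was instead higher in BUP in the neutrophil-like cells, at 4367 and 4876 CPM. It was lower in the tumor-like classes, at 596 and 380 CPM and at 514 and 309 CPM. Few cells carried much of the tumor-like *Arg1*, with 58.5% and 54.3% of the UT UMIs in 5 cells of each class. Without the cells of highest doublet score the ratio was -0.20 in the *Ogn* and *Aspn* class and -2.64 in the *Esm1* and *Nppb* class. The part of macrophage RNA or of doublets in these values was not tested. CD8 T-like cells had 27.3 and 20 CPM (-0.45, -0.98 to 0.09), beside 338 and 178 CPM of the 5 macrophage genes.

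The 2 higher *Arg1* values came from a handful of cells. In monocyte-like cells *Arg1* was at 75.9 CPM (86 UMIs) in UT and 114 CPM (62 UMIs) in BUP, a log2 ratio of 0.59 (0.10 to 1.08), but 5 cells held 96.8% of the BUP UMIs, and without the 5 highest cells of each library the levels were 20.2 and 4.12 CPM. In cycling CD8 T-like cells it was at 13.4 CPM (29 UMIs) and 28.6 CPM (90 UMIs), a log2 ratio of 1.09 (0.47 to 1.75), with 86.7% of the BUP UMIs in 5 cells, and at 8.13 and 3.91 CPM without them. Both ratios changed sign without these cells. The plasmacytoid dendritic-like cells are a like case, with 1013 CPM in 32 UT and 50.6 CPM in 20 BUP cells, where 5 cells held 98.6% of the UT UMIs.

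*Arg2*, the mitochondrial arginase, had its highest level in the neutrophil-like cells. It stood at 838 CPM (790 to 888) in UT and 879 CPM (825 to 936) in BUP neutrophil-like cells, a log2 ratio of 0.07 (-0.06 to 0.19). Thinned to 2000 UMIs, 75.8% of 281 UT and 77.8% of 230 BUP neutrophil-like cells had an *Arg2* UMI, against 1.67% and 0.883% of CD8 T-like cells. Since the median depths of the neutrophil-like cells were 1884 and 2131 UMIs, thinning left out 341 UT and 198 BUP cells. The next among the 11 classes were the monocyte-like cells (250 and 249.0 CPM) and the *Cxcl3* and *Thbs1* macrophage-like cells (214 and 230 CPM), whose intervals overlap in both libraries, followed by the interferon-led macrophage-like cells (187 and 196 CPM). Of all *Arg2* UMIs, 15.2% in UT and 16.5% in BUP came from the neutrophil-like cells, against 30.8% and 28.6% from the *Cxcl3* and *Thbs1* and 18.0% and 13.9% from the C1q macrophage-like cells.

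In the C1q macrophage-like cells *Arg2* was at 95.1 CPM (1354 UMIs) in UT and 142 CPM (823 UMIs) in BUP, a log2 ratio of 0.57 (0.45 to 0.70), just inside the 1.5-fold limit of 0.58. It passed the limit under median-ratio scaling (0.61), under a stricter cell filter (0.59) and without the highest doublet scores (0.66), and was 0.29 in thinned cells. In the same cells 8 neutrophil marker genes, none at 0, summed to 1783 CPM in UT and 4744 CPM in BUP (75281 and 109653 CPM in the neutrophil-like cells), and their part in the *Arg2* value was not tested. In the tumor-like classes *Arg2* was at 8.59 and 4.87 CPM and at 5.18 and 3.35 CPM, lower in BUP by at least 1.5-fold at levels of the order of those in CD8 T-like cells (11 and 6.23 CPM). The first ratio, -0.82, was -0.54 with 30 principal components and -0.32 in thinned cells, and the second, -0.63, was -0.58 under median-ratio scaling, each inside the limit. Without the highest doublet scores the 2 ratios were -1.28 and -1.74.

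*Nos2*, inducible nitric oxide synthase, had its highest levels of the 11 classes in macrophage-like cells, as *Arg1* did, though the order of the classes differed. Of the 11 classes, the interferon-led macrophage-like cells had the highest level, at 119 CPM (212 UMIs) in UT and 131 CPM (101 UMIs) in BUP, with a log2 ratio of 0.14 (-0.22 to 0.49). There 49.1% and 72.3% of the UMIs came from 5 cells, and without them the levels were 63.9 and 40.4 CPM, so that the place of this class above the next depends on them. The *Cxcl3* and *Thbs1* macrophage-like cells had 77.0 CPM (832 UMIs) and 63.2 CPM (466 UMIs), a log2 ratio of -0.28 (-0.45 to -0.12), and held 47.8% and 48.4% of all *Nos2* UMIs of the libraries. In the C1q macrophage-like cells *Nos2* was at 20.8 CPM (296 UMIs) and 12.4 CPM (72 UMIs), a log2 ratio of -0.75 (-1.14 to -0.37), with 58.3% of the BUP UMIs in 5 cells and a ratio of -1.48 without them. The C1q macrophage-like cells of the BUP library thus had lower levels of both *Arg1* and *Nos2*, 2 of 8 genes, against 1.97% of all genes lower in that class. The share of these cells with a *Nos2* UMI was close, at 6.25% in UT and 5.76% in BUP before thinning, with overlapping intervals. CD8 T-like cells had 0 UMIs in UT and 1 in BUP, and none of 300 and 453 thinned cells, which allows a *Nos2* UMI at that depth in up to 1.00% and 0.662% of cells. Monocyte-like cells had 2 and 0 UMIs. Neutrophil-like cells had 14.7 CPM (20 UMIs) in UT and 8.09 CPM (9 UMIs) in BUP, beside 11.5 and 9.55 CPM in the cycling C1q macrophage-like cells.

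*Slc7a2*, the arginine carrier, was also found chiefly in macrophage-like cells among the 11 classes, at low counts. Unlike *Nos2*, it was highest in the *Cxcl3* and *Thbs1* class. It was at 35.6 CPM (385 UMIs) in UT and 39.9 CPM (294 UMIs) in BUP in the *Cxcl3* and *Thbs1* macrophage-like cells, a log2 ratio of 0.16 (-0.06 to 0.39). In the C1q macrophage-like cells it was at 15.5 CPM (221 UMIs) and 11.5 CPM (67 UMIs), a log2 ratio of -0.43 (-0.85 to -0.03). In interferon-led macrophage-like cells it was at 20.2 and 36.4 CPM from 36 and 28 UMIs, with overlapping intervals. Each of the monocyte, neutrophil and T-like classes had 0 or 1 UMI in each library.

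UMIs of *Arg1* and *Nos2* were found together in 4.19% of UT and 4.66% of BUP macrophage-like cells thinned to 2000 UMIs. The part of doublets in these shares was not tested. Over all macrophage-like cells thinned to 2000 UMIs, a *Nos2* UMI was seen in 9.03% (7.51 to 10.8) of 1262 UT cells with an *Arg1* UMI and in 3.29% (2.44 to 4.34) of 1459 cells without one. In BUP the shares were 10.5% (8.16 to 13.2) of 611 cells and 2.37% (1.41 to 3.71) of 761 cells. The order held within the *Cxcl3* and *Thbs1* class, at 13.3% and 5.25% in UT and 12.2% and 3.39% in BUP, and had the same direction in the other 3 classes in both libraries, where the intervals are wide. In CD8 T-like cells the share with a *Nos2* UMI was 0% in both libraries, at the depth given above. Cells of 1 library are not replicates, so these shares describe the libraries.

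*Ass1* and *Gatm* went the other way within the *Cxcl3* and *Thbs1* class. There *Ass1* was seen in 19.4% (16.4 to 22.8) of 607 UT cells with *Arg1* and 38.5% (34.8 to 42.2) of 686 cells without it, and in BUP in 28.0% (23.7 to 32.7) of 400 and 34.6% (30 to 39.4) of 413 cells, with overlapping intervals. *Gatm* was seen in 12.2% (9.70 to 15.1) and 22.0% (19.0 to 25.3) of these UT cells and in 11.8% (8.76 to 15.3) and 17.7% (14.1 to 21.7) of these BUP cells, where the intervals again overlap. *Ass1* did not show this in the C1q macrophage-like cells, at 9.75% with and 7.17% without *Arg1* in UT and 11.8% and 10.6% in BUP, intervals that overlap. *Ass1* was again lower with *Arg1* in the interferon-led class, in both libraries. So was *Gatm* in the C1q class, at 46.8% and 54.6% in UT and in the same direction in BUP. In the cycling C1q class *Gatm* was lower in UT (53.4% and 61.5%) and higher in BUP (70.6% and 52.4%). All these intervals overlap. With *Arg1*, *Ass1* in the cycling C1q class and *Gatm* in the interferon-led class were not lower in either library. For *Arg2* in the *Cxcl3* and *Thbs1* class the shares were 35.9% and 29.6% in UT and 37.2% and 29.1% in BUP, and for *Odc1* 10.7% and 11.8% in UT and 11.8% and 11.6% in BUP. In thinned CD8 T-like cells the background was 2.67% and 1.32% for *Ass1*, and 3.67% and 2.21% for *Gatm*.

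**Figure D4:**
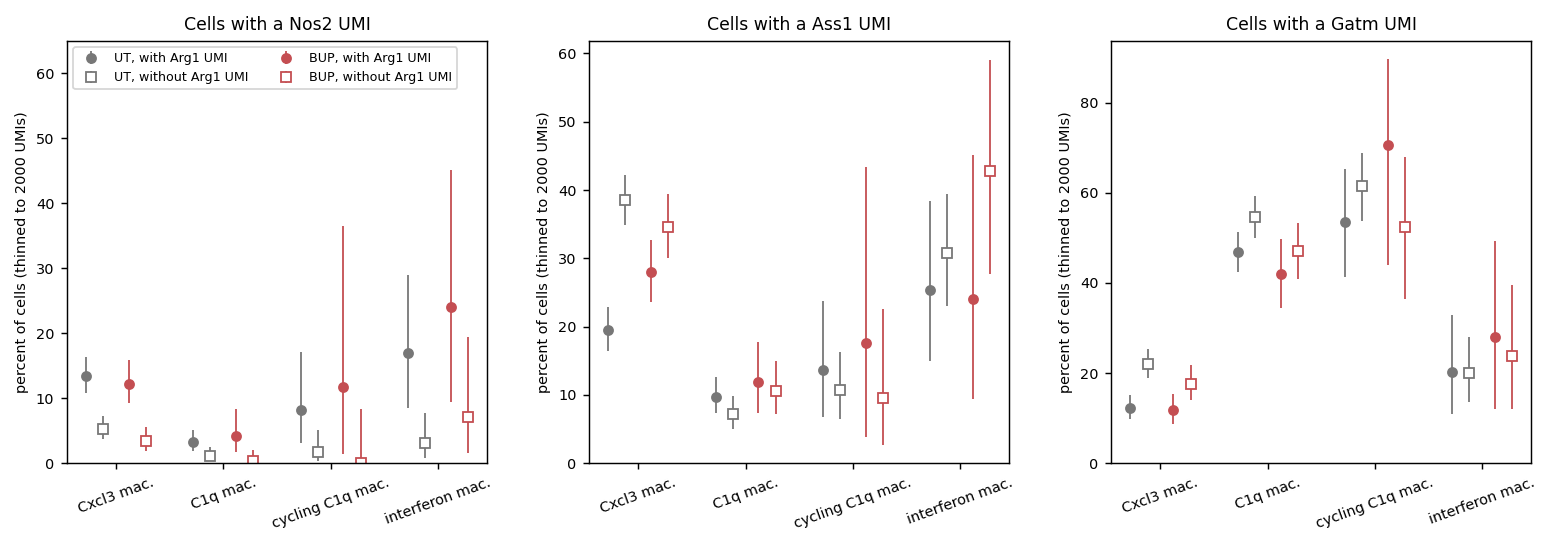
Percent of macrophage-like cells with a *Nos2* (left), *Ass1* (middle) or *Gatm* (right) UMI among cells with (filled) and without (open) an *Arg1* UMI, in 4 classes, UT in grey and BUP in red, after thinning to 2000 UMIs, with 95% exact binomial intervals. In the *Cxcl3* and *Thbs1* class the filled points lie above the open ones for *Nos2* (13.3% and 5.25% in UT) and below them for *Ass1* (19.4% and 38.5%) and *Gatm* (12.2% and 22.0%).

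*Ass1*, the enzyme that joins citrulline and aspartate, was found in macrophage-like, monocyte-like, migratory dendritic-like, T-like and fibroblast-like cells. Among the 11 classes it was highest in the *Cxcl3* and *Thbs1* macrophage-like cells, at 230 CPM (2486 UMIs) in UT and 241 CPM (1779 UMIs) in BUP, and in the interferon-led macrophage-like cells, at 202 CPM (360 UMIs) and 257 CPM (198 UMIs), a log2 ratio of 0.35 (0.09 to 0.60). The C1q macrophage-like cells had 50.8 and 61.4 CPM. Outside the 11, migratory dendritic-like cells had 337 CPM (190 UMIs in 74 cells) and 502 CPM (287 UMIs in 67 cells). The cluster led by *Ctsk* with *Cd209a* had 311 CPM (239 UMIs) and 180 CPM (116 UMIs). Without the 5 highest cells of each library the order of these classes in UT turned, with 226 CPM in the migratory dendritic-like cells and 237 CPM in this cluster. Fibroblast-like cells had 134 CPM (39 UMIs in 15 cells) and 425 CPM (607 UMIs in 64 cells), but 87.2% of the UT UMIs came from 5 cells.

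*Ass1* was also found in T-like cells led by *Il17a* and *Foxp3*, at 191 CPM (77 UMIs) in UT and 108 CPM (38 UMIs) in BUP, a log2 ratio of -0.83 (-1.43 to -0.25). The class was lower in 1 of its 2 compared genes, against 7.03% of all genes, and higher in the other. Monocyte-like cells had 85.6 and 53.5 CPM (-0.68, -1.33 to -0.07), and cycling CD8 T-like cells had 35.2 and 18.7 CPM (-0.91, -1.42 to -0.40). These 3 values rest on 115 to 135 UMIs, and each stayed at least 1.5-fold lower in every alternative that gave a log2 ratio. In the tumor-like cells *Ass1* was lower than in any other of the 11 classes, at 2.93 and 2.83 CPM and at 4.52 and 3.11 CPM. The neutrophil-like cells came next, at 14.7 CPM (20 UMIs) in UT and 5.39 CPM (6 UMIs) in BUP. Their BUP interval overlaps those of the tumor-like cells. *Asl*, which completes the rebuilding of arginine, was at 15.1 to 35.7 CPM in the 6 classes compared and within 1.5-fold in each. Its tumor-like levels were 17.3 and 21.0 CPM (165 and 586 UMIs) and 15.4 and 15.1 CPM (279 and 325 UMIs).

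*Odc1*, the entry into polyamine synthesis, was highest in the tumor-like cells led by *Esm1* and *Nppb*, at 379 CPM (6875 UMIs) in UT and 287 CPM (6179 UMIs) in BUP, a log2 ratio of -0.40 (-0.45 to -0.35). These cells held 51.2% and 41.9% of all *Odc1* UMIs. The *Ogn* and *Aspn* tumor-like cells had 170 and 172 CPM (0.02, -0.06 to 0.10). The cycling CD8 T-like cells had 176 and 138 CPM (-0.36, -0.56 to -0.15) and the CD8 T-like cells 156 and 134 CPM (-0.22, -0.43 to -0.01). Their intervals overlap in both libraries, as do those of the *Ogn* and *Aspn* tumor-like cells and the cycling CD8 T-like cells in UT. The C1q and the *Cxcl3* macrophage-like classes were lower, between 65.1 and 76.4 CPM, and so were the neutrophil-like cells (40.3 and 35.9 CPM).

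For *Odc1*, 2 small classes passed 1.5-fold. The interferon-led macrophage-like cells were lower, at 62.4 CPM (111 UMIs) and 31.2 CPM (24 UMIs), a log2 ratio of -1.0 (-1.70 to -0.35), which was -0.30 when immune clusters were not split. The T-like cells led by *Il17a* and *Foxp3* were higher, at 142 CPM (57 UMIs) and 212 CPM (75 UMIs), a log2 ratio of 0.59 (0.07 to 1.11) that fell inside the limit in 4 of 9 alternatives.

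*Gatm*, of creatine synthesis, was highest in the cycling C1q macrophage-like cells (591 and 539 CPM) and the C1q macrophage-like cells (488 and 405 CPM, log2 ratio -0.27, -0.34 to -0.20), which held 19.2% and 50% of its UMIs in UT and 8.66% and 40.1% in BUP. The *Cxcl3* and *Thbs1* macrophage-like cells had 117 and 83.8 CPM (-0.48, -0.62 to -0.34). The interferon-led macrophage-like cells had 144 and 194 CPM (0.43, 0.13 to 0.73). Levels in the 4 macrophage-like classes were thus lower in BUP in 3 and higher in 1, all within 1.5-fold. In the cycling C1q class the log2 ratio was -0.13 (-0.27 to 0.003), an interval that includes equal levels. In the tumor-like classes *Gatm* was at 12.3 and 5.0 CPM (-1.30, -1.67 to -0.93) and at 10.4 and 4.74 CPM (-1.14, -1.50 to -0.78), the same direction as the 5 macrophage genes there, and below its level in CD8 T-like cells (24.2 and 13.8 CPM). Without the 5 highest cells these ratios were -0.40 and -0.80, and without the highest doublet scores the first was -1.66. The 6 lower values in the tumor-like classes, 3 in each, are *Arg1*, *Arg2* and *Gatm*, against 2.82% and 2.15% of all genes lower there.

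Genes with the most similar profile over 24 classes, by the lower of the Pearson correlations of log2(CPM + 1) in the libraries among 5625 genes, followed these levels. They are a description, since the points share library and depth. For *Arg1* they were *C3ar1* (r of 0.93 in UT and 0.90 in BUP), *Mrc1* (0.88 and 0.87) and *Fcgr1* (0.86 and 0.87). For *Arg2* they included the neutrophil-attracting chemokine *Cxcl2* (0.96 and 0.98) and *Il1b* (0.95 and 0.96). For *Gatm* they were *Aif1* (0.93 and 0.90), *P2ry6* (0.88 and 0.92) and *Cd180* (0.88 and 0.88). *Nos2* (with *F7*, *Clec5a* and *Mmp12*) and *Slc7a2* (with *Mmp12*, *Sdc3* and *Tmem106a*) shared *Mmp12*, at 0.78 and 0.84 and at 0.76 and 0.80. For *Ass1* the genes were *Ramp3*, *Hspa1a* and *Slc8a1* (0.75 to 0.81), for *Asl* *Nufip1*, *Akr1a1* and *Gbp8* (0.79 to 0.87), and for *Odc1* *Pabpc4*, *Rif1* and *Slc14a1* (0.72 to 0.80). Among the 8 genes, *Arg1* ran closest to *Nos2* (0.73 and 0.87) and *Gatm* (0.77 and 0.75), and *Odc1* opposite to *Arg2* (-0.57 and -0.73).

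The wider pathway differed little between the libraries. Of 43 genes of arginine transport, nitric oxide, polyamine, creatine, proline and ornithine metabolism, the urea cycle and arginine sensing, 42 were found, and 211 of their values in the 11 classes rested on at least 100 UMIs. Of these, 4 were at least 1.5-fold higher and 10 lower in BUP, against 1.65% and 3.32% of all values. The nitric oxide genes held 5 of the 10 lower values. The *Cxcl3* and *Thbs1* macrophage-like cells had none among 30, and their 8 members were all within 1.5-fold as well. No class reached 100 UMIs of *Cps1*, *Otc* or *Nags*, the urea cycle genes of the liver.

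Polyamine genes had 1 higher and 3 lower of 94 values, against 1.65% and 3.32% of all values. *Smox*, spermine oxidase, was higher in the C1q macrophage-like cells, at 134 CPM (1903 UMIs) in UT and 215 CPM (1248 UMIs) in BUP, a log2 ratio of 0.68 (0.58 to 0.79), beside the 1783 and 4744 CPM of neutrophil marker genes in these cells, whose part was not tested. *Srm*, spermidine synthase, was lower in CD8 T-like cells (66.0 and 38.7 CPM, -0.77) and cycling CD8 T-like cells (62.5 and 29.8 CPM, -1.07). Among the 31 transport values, *Slc3a2*, the heavy chain of amino acid carriers, was higher in CD8 T-like cells at 233 CPM (529 UMIs) and 376 CPM (1148 UMIs), with a ratio of 0.69 on the log2 scale (0.54 to 0.84). It was also higher in the T-like cells led by *Il17a* and *Foxp3*, at 189 and 289 CPM (0.61, 0.17 to 1.06).

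Nitric oxide genes had 1 higher and 5 lower of 33 values, against 1.65% and 3.32% of all values. *Gch1*, which starts the synthesis of the cofactor of nitric oxide synthases, was lower in the *Esm1* and *Nppb* tumor-like cells, at 124 and 81.2 CPM (-0.61, -0.70 to -0.52), and *Spr*, of the same route, was lower in CD8 T-like (43.1 and 25.6 CPM) and cycling CD8 T-like cells (37.0 and 16.2 CPM). The other values past 1.5-fold were *Ddah2* in C1q macrophage-like cells (16.2 and 10.2 CPM) and, higher, in *Esm1* and *Nppb* tumor-like cells (8.54 and 14.4 CPM), *Nos3* in the latter (4.85 and 3.21 CPM), *Slc6a8*, the creatine carrier, in C1q macrophage-like cells (32.9 and 20.8 CPM), *Sat1* in the T-like cells led by *Il17a* and *Foxp3* (253 and 164 CPM) and *Slc7a7* in *Ogn* and *Aspn* tumor-like cells (5.55 and 2.51 CPM). None of 20 proline and ornithine values and none of 18 arginine sensing values passed 1.5-fold.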

How the data were processed

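RNA was counted per cell in 1 UT and 1 BUP library of CT26 tumors (10x 5' v2), grouped by the treatment in the labels. The values are UMI counts per gene and barcode, which the authors deposited as whole numbers, made with Cell Ranger 8.0.1 on GRCm39 according to the submitters' processing notes. Mixing of CD45+ and CD45- cells is given as a different ratio in the labels and in the study's methods.

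Barcodes over 100 UMIs and under 20% mitochondrial UMIs were kept. Both libraries were clustered together in Seurat 5.3.0 (R 4.3.3) at resolution 0.5 on 20 principal components of 2000 variable genes, immune clusters (at least 30% of cells with *Ptprc*) once more, without the 8 members and 5 further genes the study compares among the variable genes. Of 17 immune clusters, 2 that held mixed markers were split (resolution 0.3) after they had been seen, giving 20. Doublets were scored with Scrublet (scanpy 1.11.5) and not removed, and clusters of mixed lineage stayed unnamed. Classes are rebuilt from markers, hence -like.

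Sums per class and library gave CPM with exact Poisson intervals, log2 ratios with exact conditional intervals and shares with Clopper-Pearson intervals (Python 3.11.15, scipy 1.17.1). Intervals cover counting error only. A count of 0 was taken to allow 3 counts. With no test, a difference of 1.5-fold in genes of at least 100 UMIs over both libraries was named. All 8 members are named in every class, pathway genes where they passed 1.5-fold, and for each member the 3 genes of most similar profile (1 of them is not reported here), among genes with at least 200 UMIs and 100 CPM in 1 class. The naming rule also held the highest-level gene of each pathway list, which is left out because levels of different genes are not compared. Members and lists were chosen with earlier results of these data known. On simulated sums of the C1q macrophage-like cells (9537 genes, 200 changed 2-fold), 98.0% of changed and 0.568% of unchanged genes passed 1.5-fold. The simulated counts held counting error only, without differences between tumors or libraries. These shares are thus no error rate for BUP against UT.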

Additional observations from a re-analysis of the deposited data

Results flagged for a closer look

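These values belong to clusters that could not be named and are in no comparison above. Each is listed because the BUP interval lay above the UT interval. Separated intervals in the other direction were found as well, among them *Gatm* in the cluster with T and myeloid markers (248 CPM in UT and 191 CPM in BUP). *Nos2* in the cluster of neutrophil and macrophage markers was another, at 45.1 and 14.8 CPM, with 75.0% and 76.2% of the UMIs in 5 cells. In the immune cluster of low depth (265 UT and 165 BUP cells, median 1242 UMIs), *Arg1* was at 1264 CPM (1134 to 1403) in BUP against 781 CPM (695 to 875) in UT. *Slc7a2* in the same cluster was at 113 CPM (31 UMIs) against 33.9 CPM (13 UMIs), and *Nos2*, among the leading genes of the cluster, at 167 and 170 CPM. In the cluster with T and myeloid markers, 47.1% of which had a doublet score in the top 6%, *Arg2* was at 121 CPM (113 to 130) in BUP against 95.4 CPM (88.0 to 103) in UT. In the non-immune cluster led by *Xkr4* and *Mir100hg*, *Arg1* was at 268 CPM in BUP against 112 CPM in UT, with 92.3% and 94.3% of the UMIs in 5 cells, and 23.0 and 7.53 CPM without them.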

How the results depend on the processing

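No paired analysis was possible because each condition has 1 library. *Arg1* in C1q macrophage-like cells stayed at least 1.5-fold lower in all 9 alternatives that gave a log2 ratio, from -0.85 to -0.97, the latter without the 5 highest cells. *Arg1* in monocyte-like cells reversed to -0.47 in thinned cells, to -2.29 without the 5 highest cells, and to -0.0455 as a difference of mean log-normalized expression. In cycling CD8 T-like cells it reversed to -0.93 without the highest 6% of doublet scores, to -1.06 without the 5 highest cells, and to -0.0262 in mean log-normalized expression. The 3 higher values became 1 at a resolution of 1.0, 1 when no gene was withheld from clustering, 0 in thinned cells, 0 without the 5 highest cells, 5 at a minimum of 30 UMIs and 0 at 300 UMIs. The 14 lower values became 4 in thinned cells, where the minimum of 100 UMIs applied to the thinned counts and left fewer values, 9 without the highest doublet scores and 5 at 300 UMIs. At 300 UMIs 35 member values were compared, against 0.963% of all values higher and 1.42% lower. No share of all genes is given for the other settings, so their counts are not read as results about the members. Where immune clusters were not split (chosen after seeing the data) or no gene was withheld, 51 of the 55 values could be had. Of 55 ratios, a stricter cell filter moved 1, the median-ratio scaling 2, the resolution 4 and 30 principal components 6, leaving out the highest doublet scores moved 5 and reversed 1, leaving out the 5 highest cells moved 12 and reversed 2, and thinning moved 18 and reversed 1. The share of macrophage-like cells with a *Nos2* UMI grew with depth. In cells with and without *Arg1* it was 15.3% and 8.0% in UT and 16.8% and 5.39% in BUP for unthinned cells, and 12.1% and 5.66% in UT and 14.5% and 3.87% in BUP at 5000 UMIs. *Nos2* reached 100 UMIs in 3 and *Slc7a2* in 2 of the 11 classes, and no ratio was compared elsewhere.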

Other observations

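Genes of the wider pathway differed in the class of highest level as well. The examples here were chosen after their values were seen, and their levels in the libraries lay within 1.5-fold of each other. *Smox*, which oxidizes spermine, was highest in neutrophil-like cells, at 1200 CPM (1636 UMIs) in UT and 1346 CPM (1498 UMIs) in BUP, the class that was also highest in *Arg2*. *Srm*, spermidine synthase, was highest in the *Esm1* and *Nppb* tumor-like cells, at 360 and 336 CPM, the class highest in *Odc1*, and *Eif5a*, the protein that carries the spermidine-derived residue hypusine, was at 1240 and 1114 CPM there. *Slc7a7*, a carrier that exports arginine, was highest in C1q macrophage-like cells, at 82.7 and 81.0 CPM. Among the smaller classes, *Ckb*, the brain-type creatine kinase, stood at 889 CPM (1039 UMIs) in UT and 982 CPM (1405 UMIs) in BUP in type 1 dendritic-like cells. *Castor1*, the cytosolic arginine sensor, stood at 54.9 and 57.7 CPM in migratory dendritic-like cells, from 31 and 33 UMIs. *Slc7a1*, the widely expressed arginine carrier, stood at 335 and 243 CPM in the cluster led by *Xkr4* and *Mir100hg*.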
